A study of Sus scrofa with 2 samples.

Results

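The genes described here are those of G-protein, cAMP and RGS signalling on the EMPV1 array, a custom porcine 4x44K microarray made for early embryos. They were taken by symbol from the platform annotation: every probe whose gene symbol begins with RGS, GNA, GNB, GNG, ADCY, PDE, PRKAC, PRKAR, AKAP or GPR followed by the numbers and letters of those families. The rule gave 172 of 43794 probes, and these stand for 131 of the 11938 gene symbols on the array. There were 17 RGS, 13 GNA, 3 GNB, 6 GNG, 8 ADCY, 21 PDE, 5 PRKA, 12 AKAP and 46 GPR genes. A symbol rule also takes in genes of another kind, here RGS9BP, PDE12, PDE6D, GPR137, GPR137B and GPR137C, which were kept because the rule names them. Of the 131 symbols, 128 are in the RefSeq gene table of Sscrofa11.1 and 3 are there as older names, of which GPR120 is listed under PDE6C and kept its name from the annotation.

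The study compared RNA from 2 single cumulus-oocyte complexes (COCs) of Large White pigs, labelled COC7 and COC4, in a test run of the array. Both came from mature follicles in slaughterhouse ovaries of gilts, and no treatment, genotype or age tells them apart in the labels. Array 1 set COC7 in Cy5 against COC4 in Cy3, and array 2 had the opposite labelling. The RNA of each COC was amplified in 2 rounds before labelling. Each COC is thus 1 sample, the arrays are technical repeats of the same pair of RNAs, and no test between COCs is possible. A value given as ± below is how far either array lay from their mean, and it holds no variation among complexes. It does hold any dye effect, which cancels in the mean where it is equal on both arrays. With 1 array in each labelling, a dye effect and noise cannot be told apart in it. A COC holds the oocyte and the cumulus cells around it, so that fewer cells of a type and less RNA per cell cannot be told apart in its RNA.

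Values are log2 ratios of COC7 over COC4, with the sign of array 2 turned so that both arrays run the same way. Values above 0 are called the COC7 side and values below 0 the COC4 side. The direction is likely rather than stated: Cy5 over Cy3 was taken from the channel order of the labels and from the usual form of such ratios. Were the true order Cy3 over Cy5, all signs below would turn and the COCs would change places. Only ratios were used, so that how abundant a transcript was cannot be read from them, nor whether a marker was absent from a COC.

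G-protein-coupled receptors pass a signal through heterotrimeric G proteins, made of an alpha subunit (GNA genes) and a beta-gamma pair (GNB and GNG genes). Gs stimulates and Gi inhibits adenylyl cyclase (ADCY genes), which makes cAMP, and phosphodiesterases (PDE genes) break cAMP and cGMP down. Protein kinase A, built of catalytic and regulatory subunits (PRKA genes), is the main receiver of cAMP and is held in place by anchoring proteins (AKAP genes). RGS proteins hasten the return of alpha subunits to their inactive state. In the oocyte, high cAMP keeps the cell arrested in meiosis, and cGMP that enters from the cumulus cells slows its breakdown by the phosphodiesterase PDE3A. In the cumulus, cAMP made after gonadotropin stimulation drives expansion of the complex.

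Over all 43794 probes the mean ratios had an SD of 0.188, and 37.1% of probes had the same sign on both arrays, which were correlated at -0.268 (Pearson's r across probes of the same pair of RNAs, a description with no test). Markers of the cumulus and granulosa lay mostly on the COC4 side (3 above 0 and 18 below 0 of 21 measured, median -0.29) with medians of -0.29 on array 1 and -0.13 on array 2. Oocyte markers had a median of 0.12 (7 above 0 and 3 below 0 of 10), but the arrays disagreed on their side, with medians of -0.25 on array 1 and 0.52 on array 2. The part of these markers in the signalling values was not tested.

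RGS5 stood apart from all other genes of the group. It was 4.38-fold lower in COC7 than in COC4, while no other signalling gene was past 2-fold. In all, 2 of the 172 signalling probes (1.16%) were at or past 2-fold, against 0.174% of all probes on the array. At 1.5-fold there were 6 of 172 (3.49%), against 1.70% of all probes. On the COC7 side these were GPR161 and 1 probe of AKAP12 (2 of 172, 1.16%, against 0.916% of all probes), and on the COC4 side the 2 probes of RGS5, GNG11 and PRKAR2B (4 of 172, 2.33%, against 0.788%). Without RGS5, which was known to lie far out when the group was drawn up, 2 of 170 probes were left on the COC4 side at 1.5-fold. All probes had 0.788% there. At 2-fold 0 of the 170 were left, so the 2 probes past it were those of RGS5. Counted by gene, 1 of 131 (0.763%) was at or past 2-fold, against 0.151% of all genes, and that was on the COC4 side (0.0838% of all genes). At 1.5-fold there were 4 of 131 genes (3.05%), against 1.93% of all genes: GPR161 alone above 0, where all genes had 0.963%, and RGS5, GNG11 and PRKAR2B below 0, where all genes had 0.963% too.

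RGS5 is an RGS protein of the R4 class that acts on Gi and Gq and is best known as a marker of pericytes. One of its probes read -3.09 on array 1 and -1.32 on array 2, and the other read -2.99 on array 1 and -1.13 on array 2. Both probes were thus on the COC4 side on both arrays, and by mean they were the farthest from 0 of all 43794 probes, at -2.20 and -2.06. The gene mean was -2.13 ± 0.91, with an 8.21-fold difference on array 1 and a 2.33-fold difference on array 2. The arrays agreed on the side but not on the size, whereas the probes differed from each other by 0.145 in the mean.

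The other 16 RGS genes lay between -0.19 and 0.21, with a median of 0.014 and 9 above 0 and 7 below 0. RGS5 was 2.14 below that median on the log2 scale (a difference of -2.14, with -2.99 on array 1 and -1.39 on array 2). It was lower by 1.94 (difference -1.94) than RGS12, the lowest of the others. On either array alone the ranges did not overlap: the other RGS genes lay between -0.38 and 0.17 on array 1 and between -0.46 and 0.29 on array 2. Since the value of RGS5 was known when it was set against its family, this is a description.

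**Figure D1:**
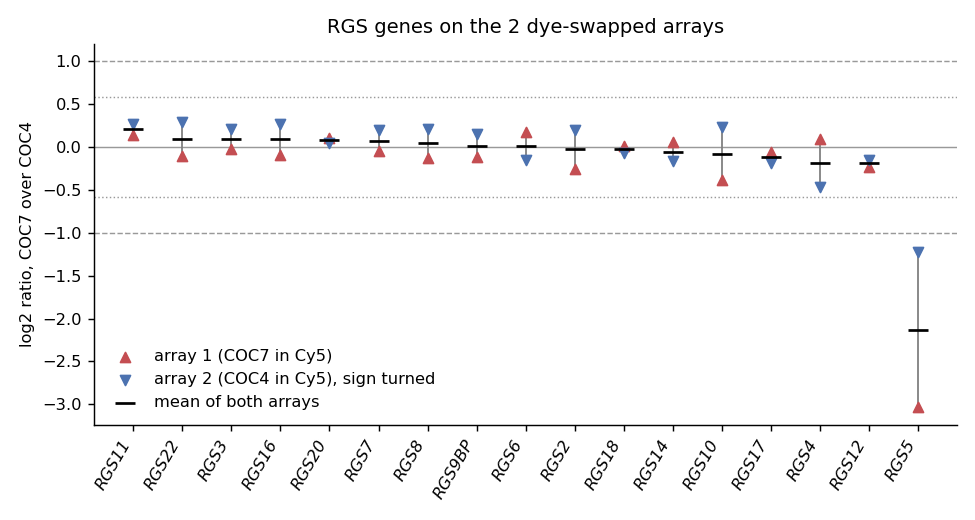
Log2 ratio of COC7 over COC4 (vertical axis) for the 17 RGS genes, ordered by mean. Upward triangles are array 1, downward triangles array 2 with the sign turned, bars their mean, and dotted and dashed lines 1.5-fold and 2-fold. RGS5 lies at -3.04 on array 1 and -1.22 on array 2, and the other genes lie between -0.46 and 0.29 on either array.

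Of those 16 genes, 4 had the same sign on both arrays (25.0%, against 38.7% of all genes). RGS11, of the R7 class that pairs with the beta subunit GNB5, read 0.14 on array 1 and 0.27 on array 2 (mean 0.21 ± 0.07). RGS20, of the RZ class that acts on Gz, read 0.10 and 0.053 in the same order of arrays (mean 0.078 ± 0.025). RGS12, a large RGS protein that also has Ras-binding domains, read -0.23 and -0.15 (mean -0.19 ± 0.04). RGS17, also of the RZ class, read -0.056 and -0.18 (mean -0.12 ± 0.06). RGS11 and RGS20 thus lay above 0 and RGS12 and RGS17 below it, all within 1.5-fold.

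In the class of RGS5 itself, no other gene kept its sign across the arrays (0 of 6, where 38.7% of all genes kept it). The median of these 6 R4 genes was 0.0081 and their range -0.19 to 0.091. RGS4, which stands beside RGS5 in the gene order of Sscrofa11.1, read 0.091 on array 1 and -0.46 on array 2 (mean -0.19 ± 0.28). RGS2, an inhibitor of Gq, read -0.25 and 0.20, and the means of its 3 probes lay between -0.089 and 0.052. RGS16, RGS3, RGS8 and RGS18 had means of 0.089, 0.091, 0.042 and -0.028. In the R12 class all 3 genes, RGS12, RGS10 and RGS14, lay below 0 by mean (median -0.078), but the arrays had opposite signs for RGS10 (-0.38 and 0.23) and RGS14 (0.059 and -0.16). RGS6 and RGS7, of the R7 class, had means of 0.012 and 0.075, RGS22 had 0.092, and RGS9BP, the membrane anchor of the retinal RGS protein RGS9, had 0.016.

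Because RGS5 is a pericyte marker, the other markers of vessel wall cells were set beside it. Of 10 measured pericyte and smooth muscle markers besides RGS5, 3 lay above 0 and 7 below 0, with a median of -0.028 and a range of -0.20 to 0.12. ACTA2, the smooth muscle actin, was the lowest of them, with -1.24 on array 1 and 0.85 on array 2 (mean -0.20 ± 1.04). The pericyte markers PDGFRB, CSPG4, ABCC9 and KCNJ8 had means of -0.045, -0.0049, -0.021 and 0.12, all near 0. Endothelial markers had a median of 0.012, with 6 above 0 and 4 below 0 of 10. Blood and immune markers had a median of 0.046 (7 genes) and theca markers one of -0.057 (3 genes). No marker of these lists came near the contrast of RGS5. The cumulus and granulosa list lay on the same side as RGS5 (median -0.29, 3 above 0 and 18 below 0 of 21). Of these 21 genes, 3 were past 2-fold, against 0.151% of all genes. Past 1.5-fold on the COC4 side there were 5, against 0.963% of all genes. The farthest, TNFAIP6, read -0.68 on array 1 and -1.87 on array 2 (mean -1.28 ± 0.60). The part of the cumulus genes in the RGS5 ratio was not tested.

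Among the alpha subunits, GNA12 lay farthest out. It is the alpha subunit that gives the G12 class its name, and it read 0.43 on array 1 and 0.51 on array 2 (mean 0.47 ± 0.04, 1.39-fold higher in COC7). GNA14, of the Gq class, was the lowest, with -0.15 and -0.41 (mean -0.28 ± 0.13), and its 3 probes agreed closely at -0.32 to -0.25. GNAI1, an inhibitory alpha subunit, was the third gene with the same sign on both arrays, at -0.034 and -0.16 (mean -0.099 ± 0.065). The other 10 alpha subunits had opposite signs on the arrays.

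Most alpha subunits lay above 0 by mean, 10 of 13, with a median of 0.087, but this side was carried by array 1, where their median was 0.33, against -0.081 on array 2. GNAO1, the Go subunit, is an example, at 0.78 on array 1 and -0.12 on array 2 (mean 0.33 ± 0.45). The inhibitory subunit GNAI2 read 0.50 and -0.039 (mean 0.23 ± 0.27), and GNAZ, the Gz subunit, read 0.56 and -0.22 (mean 0.17 ± 0.39). For each of these the arrays lay on opposite sides of 0. Their side is thus that of the mean alone, which rests on an equal dye effect on both arrays. That it was equal was not tested.

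GNAS encodes the Gs subunit that, under the receptor GPR3, holds oocyte cAMP high. It had 8 probes, the most of any gene of the group, and read 0.33 on array 1 and -0.081 on array 2 (mean 0.12 ± 0.20). The 3 probes annotated with the same RefSeq transcript had means of 0.35, 0.35 and 0.23, and the other 5, of which 3 carry no transcript in the annotation, had means of 0.092, 0.066, 0.043, 0.017 and -0.17. In all, 7 of its 8 probes lay above 0 by mean, and 1 of the 8 had its sign above 0 on both arrays. The 3 probes of the shared transcript read 0.72, 0.61 and 0.58 on array 1 and -0.013, 0.087 and -0.12 on array 2, so their distance from the other probes was seen on array 1 only.

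The beta and gamma subunits were close to 0 apart from GNG11. GNG11, a gamma subunit found widely outside the nervous system, read -0.25 on array 1 and -1.12 on array 2 (mean -0.69 ± 0.43, 1.61-fold lower in COC7). Both arrays placed it on the COC4 side, with most of the difference on array 2, the reverse of RGS5. GNG2 read -0.26 and -0.0030 (mean -0.13 ± 0.13), with its probes at -0.30 and 0.034. GNG12 read 0.067 and 0.049 (mean 0.058 ± 0.009), and GNGT1, the gamma subunit of rod transducin, read 0.29 and 0.010 (mean 0.15 ± 0.14). Among 3 beta subunits, GNB5, the partner of the R7 RGS proteins, had the closest pair of arrays, at 0.17 and 0.18 (mean 0.17 ± 0.01). GNB3 (mean 0.083) and GNB2 (mean -0.021) had opposite signs on the arrays.

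The adenylyl cyclases were the tightest of the groups, with an SD of 0.094 and a range of -0.17 to 0.12 over 8 genes. ADCY6 was the only cyclase with the same sign on both arrays, at -0.12 and -0.22 (mean -0.17 ± 0.05). ADCY3, the main cyclase of rodent oocytes, read -0.12 on array 1 and 0.36 on array 2 (mean 0.12 ± 0.24). ADCY9, a widely expressed cyclase, read 0.068 and -0.040 (mean 0.014 ± 0.054). For both, the arrays lay on opposite sides of 0, so that their side is that of the mean alone.

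The 21 phosphodiesterase symbols had a median of 0.0034, with 11 above 0 and 10 below 0. PDE3A, which degrades cAMP in the oocyte and is inhibited by cGMP, read 0.10 on array 1 and 0.039 on array 2 (mean 0.070 ± 0.031). PDE4D, a cAMP phosphodiesterase of granulosa cells, read -0.038 and -0.049 (mean -0.043 ± 0.005). PDE3A and PDE4D thus lay on opposite sides of 0 on both arrays, at sizes below the SD of all genes (0.191). The other PDE4 genes had means above 0, at 0.099 for PDE4A, 0.062 for PDE4B and 0.11 for PDE4C. The farthest phosphodiesterase by mean was PDE8A, a cAMP-specific enzyme of high affinity, but its arrays disagreed: -1.08 on array 1 and 0.14 on array 2 (mean -0.47 ± 0.61). Among the genes with the same sign on both arrays, the farthest were PDE12, a mitochondrial RNA deadenylase and not a cyclic nucleotide enzyme (0.097 and 0.67, mean 0.38 ± 0.29), and PDE6D, a carrier of prenylated proteins (0.24 and 0.33, mean 0.29 ± 0.04). PDE4A (0.012 and 0.19, mean 0.099 ± 0.087) and PDE1B (0.016 and 0.16, mean 0.086 ± 0.070) were next. By substrate, the 8 cAMP enzymes had a median of -0.022, the 3 cGMP enzymes 0.044 and the 7 dual enzymes -0.013.

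**Figure D2:**
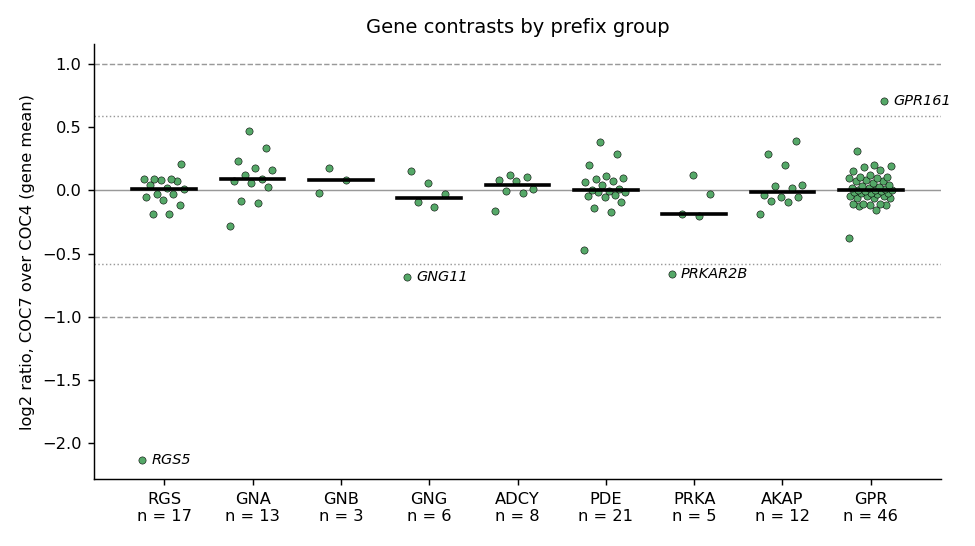
Gene contrasts by prefix group: mean log2 ratio of COC7 over COC4 on both arrays (vertical axis), 1 point per gene, with black bars for the group median and dotted and dashed lines for 1.5-fold and 2-fold. The group medians lie between -0.19 (PRKA) and 0.087 (GNA), and RGS5, GNG11, PRKAR2B and GPR161 are the 4 genes past 1.5-fold.

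Protein kinase A was the group with the lowest median, -0.19 over 5 genes, of which 1 lay above 0 and 4 below 0. The shift was not the same on the arrays, with medians of -0.045 on array 1 and -0.24 on array 2. PRKAR2B, the type II beta regulatory subunit, read -0.68 on array 1 and -0.64 on array 2 (mean -0.66 ± 0.02, 1.58-fold lower in COC7). It was the signalling gene past 1.5-fold with the closest arrays. PRKAR1A, the type I alpha subunit, read -0.17 and -0.24 (mean -0.21 ± 0.04), and the catalytic subunit PRKACA read -0.045 and -0.33 (mean -0.19 ± 0.14). These 3 subunits were on the COC4 side on both arrays. PRKAR1B read 0.19 and 0.045 (mean 0.12 ± 0.07), on the COC7 side on both. PRKAR2A, the type II alpha subunit, read 0.055 and -0.11 (mean -0.026 ± 0.081), with opposite signs on the arrays. The type II regulatory subunits thus differed from each other by more than the distance between arrays of either.

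The 12 anchoring proteins had a median of -0.013. AKAP3, known from the sperm tail, read -0.20 on array 1 and -0.18 on array 2 (mean -0.19 ± 0.01). AKAP13, a large anchoring protein, read 0.37 and 0.20 (mean 0.29 ± 0.08), with 0.54 for one probe and 0.037 for the other. AKAP2 (mean -0.083 ± 0.016) and AKAP6 (mean 0.043 ± 0.013) also had the same sign on both arrays. AKAP12, a scaffold for kinase A and C, was the farthest by mean at 0.39 ± 0.52, and this came from 1 probe on 1 array. That probe read 1.59 on array 1 and -0.26 on array 2, while its other probe read 0.24 and 0.0011. AKAP9, a scaffold of the Golgi and centrosome, read 0.42 and -0.027, with probes at -0.070 to 0.39.

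Most genes of the group with the GPR prefix are orphan receptors or receptors whose ligand was found late. Their median was 0.0029 over 46 genes, with 25 above 0 and 21 below 0 and a range of -0.38 to 0.71. GPR161, a receptor of the primary cilium that raises cAMP and restrains Hedgehog signalling, read 0.92 on array 1 and 0.49 on array 2 (mean 0.71 ± 0.21, 1.63-fold higher in COC7). It was the gene past 1.5-fold on the COC7 side. GPR120, a receptor for long-chain fatty acids, was the farthest on the other side, at -0.44 and -0.32 (mean -0.38 ± 0.06). GPR137B, a lysosomal membrane protein, read 0.32 and 0.30 (mean 0.31 ± 0.01), although its 3 probes spread from 0.13 to 0.55. GPR63 read 0.18 and 0.21 (mean 0.20 ± 0.02), and GPR37, a receptor known from brain, 0.20 and 0.18 (mean 0.19 ± 0.01). Apart from GPR161, these genes were within 1.5-fold.

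GPR3, GPR6 and GPR12 are closely related receptors that activate Gs without added ligand. GPR3 is the receptor that maintains meiotic arrest in mouse oocytes, and GPR12 is known for this role in rat. GPR12 read -0.017 on array 1 and -0.21 on array 2 (mean -0.12 ± 0.10), while GPR3 read -0.22 and 0.14 (mean -0.043 ± 0.18) and GPR6 read -0.32 and 0.017 (mean -0.15 ± 0.17). The means of all 3 lay on the COC4 side (median -0.12), but GPR12 alone was there on both arrays.

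Some receptors differed widely between the arrays. For 5 of the 46 GPR genes the arrays lay more than 1 apart on the log2 scale, yet their means lay within 0.2 of 0. The share of all genes with such a distance was not counted. The median distance of either array from the mean was 0.130 for the GPR genes and 0.129 for all genes. It was not particular to receptors, as the marker ACTA2 read -1.24 on array 1 and 0.85 on array 2. GPR153 read -0.74 on array 1 and 1.04 on array 2, and GPR143, the receptor of ocular albinism, read 0.98 and -0.66. GPR180 read 0.79 and -0.73, GPR132 0.71 and -0.67, and GPR56, an adhesion receptor, -0.64 and 0.72. Each of these would pass 1.5-fold on either array alone, on a different side on each.

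**Figure D3:**
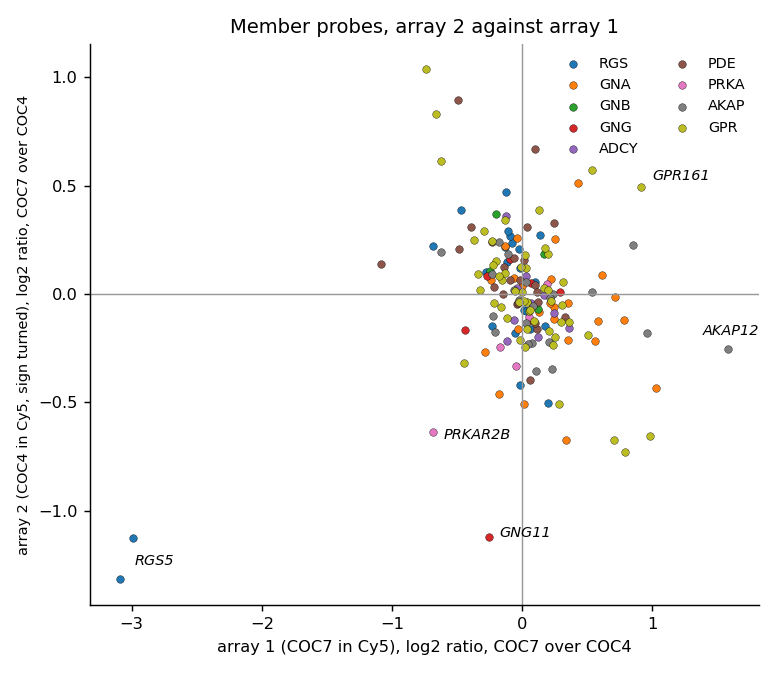
Log2 ratio of COC7 over COC4 of the 172 probes on array 2 with the sign turned (vertical axis) against array 1 (horizontal axis), coloured by prefix group. Probes in the upper right and lower left quadrants have the same sign on both arrays (58 of 172); the 2 probes of RGS5 lie at the far lower left, and the AKAP12 probe past 1.5-fold lies at the right, at 1.59 on array 1 and -0.26 on array 2.

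Across the group, 58 of 172 probes (33.7%) had the same sign on both arrays, against 37.1% of all probes, and by gene 46 of 131 (35.1%; 25 above 0 and 21 below it), against 38.7% of all genes. For the other 85 genes either array lay farther from the mean than the mean did from 0. Across the 172 probes the arrays were correlated at 0.0777, and without the probes of RGS5 at -0.324 (Pearson's r across probes of 1 pair of RNAs, with no test). The gene means had an SD of 0.255, which was 0.174 without RGS5, against 0.191 for all genes. By mean, 113 of the 131 genes lay within 0.2 of 0, a share that was not counted over all genes. The median size of the contrast, without its sign, was 0.0834 for the signalling genes and 0.0846 for all genes. Outside RGS5, the spread of the signalling genes was thus no wider than that of the array.

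Where a gene had several probes, they give a further measure of spread. Of 26 such genes, 13 had all their probes on one side by mean. The range between the probes of a gene had a median of 0.147, against a median distance between the arrays of 0.262 for the same genes. It was smallest for GPR137 (0.0010) and largest for AKAP12 (0.54), GNAS (0.52) and AKAP13 (0.50). GNG11, PRKAR2B and GPR161 each had 1 probe, so that of the genes past 1.5-fold RGS5 alone was measured by several.

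**Figure D4:**
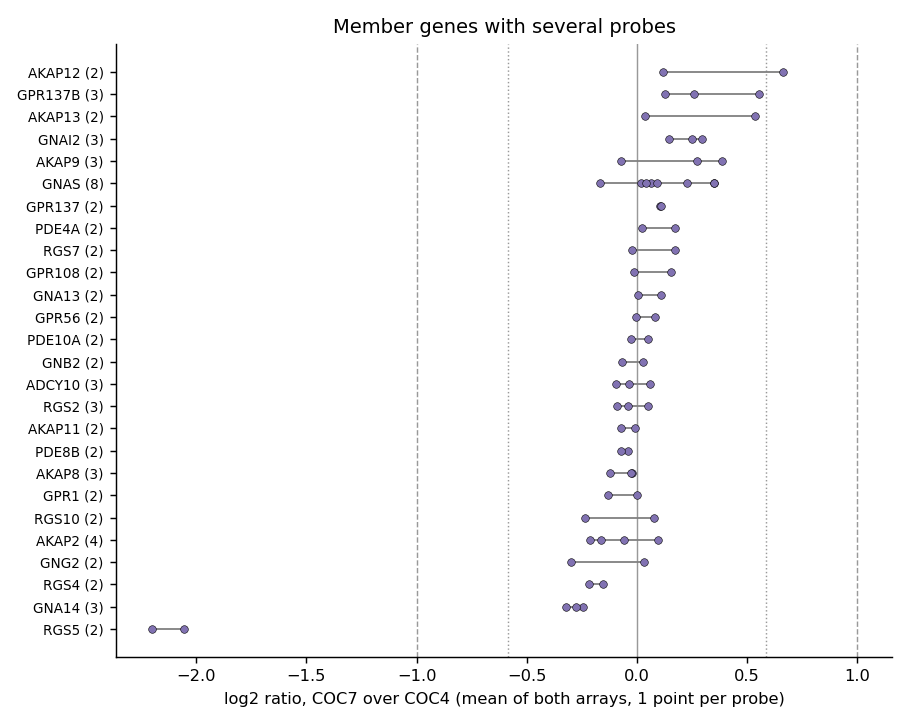
Mean log2 ratio of COC7 over COC4 (horizontal axis) of each probe of the 26 genes with several probes, 1 point per probe, with the number of probes in brackets and dotted and dashed lines for 1.5-fold and 2-fold. The probes of RGS5 lie at -2.20 and -2.06, and those of GNAS between -0.17 and 0.35.

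Other genes of the same pathways, from lists of receptors, ligands, kinases and targets, gave the setting for these values. Of 171 such genes, 87 lay above 0 and 84 below 0, with a median of 0.0017. In all, 63 had the same sign on both arrays (36.8%, with 26 above 0 and 37 below it), against 38.7% of all genes. Of the 171, 1 was past 1.5-fold, against 1.93% of all genes. That gene was PENK, the precursor of the enkephalins, which act on Gi-coupled opioid receptors. It read -1.34 on array 1 and -1.54 on array 2 (mean -1.44 ± 0.10) and was the pathway gene nearest to RGS5 in size.

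Upstream of the G proteins, 58 hormone and ligand receptors had a median of -0.0014, with 29 above 0 and 29 below 0. LPAR6, a lysophosphatidic acid receptor that couples to G13, read -0.35 and -0.47 (mean -0.41 ± 0.06), and CRHR2, a receptor for urocortins, 0.37 and 0.15 (mean 0.26 ± 0.11). The gonadotropin receptors FSHR and LHCGR, which raise cAMP in follicle cells, had means of -0.16 and -0.14. FSHR read -0.35 on array 1 and 0.018 on array 2, and LHCGR read -0.12 and -0.17, so LHCGR alone kept its sign. Among 13 ligand genes (median -0.0045), PTGES, the prostaglandin E synthase, followed PENK at -0.37 and -0.45 (mean -0.41 ± 0.04). The 11 receptor kinases and arrestins had a median of -0.012, with ARRDC3 at -0.31 ± 0.18 and ARRDC4 at 0.31 ± 0.43. Of 15 other regulators of G proteins (median 0.066, but -0.11 on array 1 and -0.022 on array 2), NUCB1, a calcium-binding protein that also binds Gi subunits, read -0.20 and -0.52 (mean -0.36 ± 0.16). SNX14, a sorting nexin with an RGS-like domain, read -0.19 and -0.51 (mean -0.35 ± 0.16).

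In the Gq branch, 22 genes of phospholipase C, inositol trisphosphate receptors and protein kinase C had a median of 0.036. PLCB2, an effector of Gq and of beta-gamma, read -0.34 and -0.73 (mean -0.54 ± 0.19), and PLCD3 read 0.65 and 0.18 (mean 0.42 ± 0.24). These lay on opposite sides of 0.

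Downstream of cAMP the values were small. The 10 cAMP effectors and kinase inhibitors had a median of 0.050, with the channel HCN4 at 0.41 ± 0.46 and RAP1A at 0.34 ± 0.34. The 12 genes of the CREB family and its coactivators had a median of -0.037 and a farthest value of -0.094 ± 0.071, that of CREM, followed by CREB5 at -0.086 ± 0.082. In the cGMP pathway 3 genes lay above 0 and 12 below 0 of 15 (median -0.035, with -0.13 on array 1 and -0.033 on array 2). NOS2 read -0.39 and -0.15 (mean -0.27 ± 0.12), and NPR2, the cumulus receptor through which cGMP is made for the oocyte, read -0.34 and -0.10 (mean -0.22 ± 0.12). The 8 gap junction genes had a median of 0.021, with PANX3 at 0.26 ± 0.09 and GJB5 at -0.14 ± 0.26. The 7 genes of the meiotic switch that kinase A controls had a median of 0.10, with 6 above 0 and 1 below 0, but their medians were -0.18 on array 1 and 0.26 on array 2, and 1 of the 7 had the same sign on both. In this list MOS, the kinase that activates the MAP kinase cascade in oocytes, read 0.61 and 0.069 (mean 0.34 ± 0.27). CDK1, the kinase of that switch, read -0.36 and 0.65 (mean 0.14 ± 0.51).

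**Figure D5:**
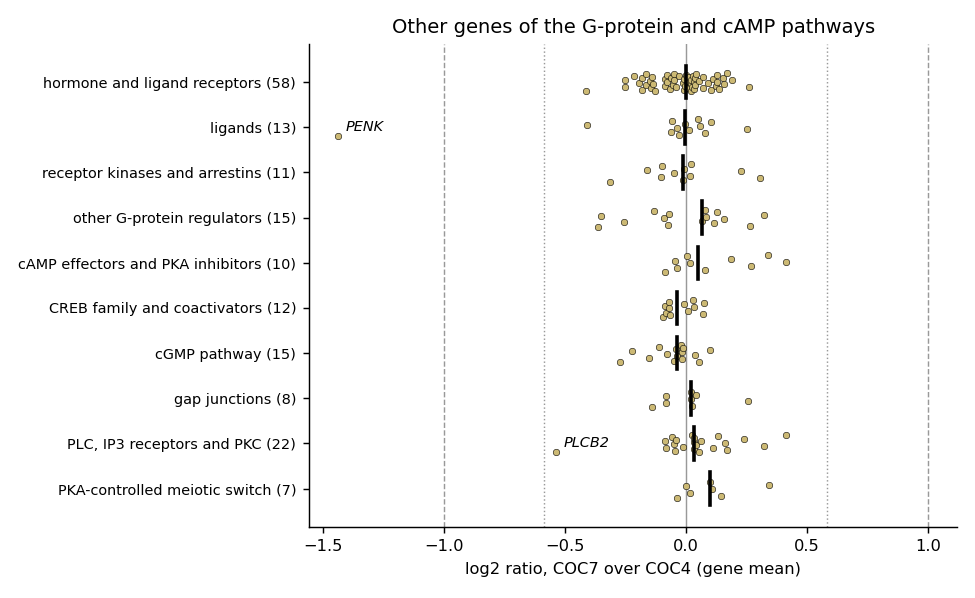
Mean log2 ratio of COC7 over COC4 (horizontal axis) of the other pathway genes by list, 1 point per gene, with the number measured in brackets, black bars for the list median and dotted and dashed lines for 1.5-fold and 2-fold. PENK lies at -1.44 and PLCB2 at -0.54, and the list medians lie between -0.037 and 0.10.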

How the data were processed

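The authors extracted RNA from single COCs, amplified it in 2 rounds, labelled it with Cy3 and Cy5, scanned the arrays and read them in GenePix Pro with background subtraction. Normalization was done both within arrays and between them, and the contrast was made with limma in FlexArray. The deposited values are log2 ratios, a scale read from the 2-fold lines of the study's plot of the contrast, and neither the method of normalization nor the centring is given in the sources used here.

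The sign of the array with COC4 in Cy5 was turned, probes were averaged over the arrays, and probes of a gene were averaged. Channel signals were not analysed here. With 1 COC on each side no test was run, and counts are at 1.5-fold and 2-fold. Genes named are the 4 of each prefix group farthest from 0 among those with the same sign on both arrays, every gene past 1.5-fold, every RGS gene, genes of known role in the oocyte or cumulus (PDE5A, AKAP1 and PRKACB have no named probe here), and the 2 farthest of each other list. Those outside the rule, named after their values were seen, are GNAO1, GNAI2, GNAZ, GNB2, GNB3, GPR6, GPR37, GPR137, GPR137C, AKAP9 and AKAP12 (1 probe past 1.5-fold). The same holds for PDE4B, PDE4C, the 5 receptors that differed widely between the arrays, FSHR, LHCGR, TNFAIP6 and the vessel markers. One list of pathway genes is not reported here. Members and lists were chosen with earlier results of these data known. Alternatives were each array alone, each array separately, centring on the median, probes in place of gene means, symbols of another kind left out, and every sign turned. Added after the data had been seen were genes in place of probes, RGS5 left out and the RGS5 probe nearest to 0. A second deposited table of log2 ratios has 2 columns that name no sample, and it was not used here. Python 3.11.15, numpy 2.4.6, pandas 2.3.3 and matplotlib 3.10.9 were used, and the scripts were tested on simulated data.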

Additional observations from a re-analysis of the deposited data

How the results depend on the processing

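Of 153 values recomputed under an alternative, 117 moved by less than the SD over the arrays or stayed within 1.5 times the count, 34 moved by more, and 2 contrasts past 1.5-fold changed sign. The last were the contrast of RGS5 and its distance from the other RGS genes, 2.13 and 2.14 with every sign turned, which swaps the COCs and so turns the sign of each other value too. Those 2 changes were thus fixed in advance. The SD was taken over the 2 array values, so either array alone could not move the RGS5 contrast by more. The counts describe the recomputed values and are no test of them. With every sign turned the medians were 0.060 for GNG, -0.045 for ADCY, 0.19 for PRKA, 0.0014 for the receptors, -0.066 for the other regulators, -0.050 for the cAMP effectors and 0.037 for the CREB family, and the counts were 2 above 0 and 0 below at 2-fold, and 4 above 0 and 2 below at 1.5-fold. On array 1 alone the medians were -0.045 for PRKA, 0.023 for GPR, -0.11 for the other regulators and -0.13 for the cGMP pathway, with 2 probes above 0 past 2-fold and, past 1.5-fold, 11 above 0 and 9 below. On array 2 alone they were -0.060 for ADCY, 0.064 for PDE, 0.013 for GPR, -0.0054 for the receptors, -0.081 for the ligands, -0.12 for the receptor kinases and arrestins and -0.022 for the other regulators, with 1 probe above 0 past 2-fold and, past 1.5-fold, 5 above 0 and 8 below. Over probes in place of genes the receptor median was -0.0062. By gene there was 1 past 2-fold on the COC4 side and 1 past 1.5-fold on the COC7 side. A 1.5-fold difference on each array separately left 0 on the COC7 side. Without RGS5, 0 were left past 2-fold and 2 past 1.5-fold on the COC4 side. The cause of these shifts was not tested.

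No paired analysis was possible because each COC is 1 sample and the arrays are technical repeats. The second table of ratios, as its columns name no sample, and the removal of block medians, as the table used gives no position of spots, were not run. Signal over background was not examined, so that the precision of dim probes is unknown here. The study lists the COC spots above its background threshold, and that list was not used.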

Other observations

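Over the arrays, the 5 genes nearest to RGS5 of the 11938 (by Euclidean distance over the 2 array values of 1 pair of RNAs) were GKN1, LOC100514912, GSTA4, PENK and TMEM167A. GKN1, a secreted protein known from the stomach lining, was at a distance of 0.537, with -2.51 on array 1 and -1.30 on array 2. Like RGS5 it was lower on array 1. The others were at 1.67 to 1.86, with means of -1.20 for LOC100514912, -1.09 for GSTA4, a glutathione transferase, -1.44 for PENK and -1.01 for TMEM167A. Of the other signalling genes, PDE8A (distance 2.38), PRKAR2B (2.42) and GPR120 (2.75) were nearest.

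In the gene order of the RefSeq table of Sscrofa11.1, the genes beside RGS5 are NUF2, a kinetochore protein, on one side and RGS4 on the other. NUF2 had a mean of -0.083 ± 0.20, and RGS4 -0.19 ± 0.28. Farther along, HSD17B7, a steroid and cholesterol enzyme, had 0.067 ± 0.29, DDR2, a collagen receptor, -0.15 ± 0.11, and UAP1, an enzyme of the hexosamine pathway that supplies hyaluronan, -0.33 ± 0.36. None of these neighbours came near the contrast of RGS5, at -2.13 ± 0.91.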
